A study of Danio rerio with 12 samples.

Results

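Heat shock and chaperone genes were examined in the transcriptome of whole elmo2-/- zebrafish larvae. The genes were chosen by symbol, as hsp70l, hspa8, hspa5, hsp90aa1.1, hsp90aa1.2, hsp90ab1, hspb1, dnajb1b, hsf1 and hspd1. The 10 symbols matched 11 of the 32520 gene rows in each sample, because 2 Ensembl identifiers carried the symbol of hspa8. They are called hspa8 row 1 (ENSDARG00000068992) and hspa8 row 2 (ENSDARG00000037403) here. The gene listed as HSP90AA1 (ENSDARG00000024746) was taken as hsp90aa1.2, since hsp90aa1.1 (ENSDARG00000010478) was listed under its own name.

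Total RNA was isolated at 120 hpf from pools of 30 whole larvae, with 6 pools per genotype (elmo2-/- and elmo2+/+). The knockout was a CRISPR/Cas9 frameshift deletion in elmo2, made in the Tg(fli1:EGFP) line, whose reporter marks endothelial cells. Per the methods of the study, larvae up to this age were raised with or without PTU, which suppresses pigment, and which applied to these pools is not given in the sources used here. The methods also give tricaine anaesthesia before freezing as the usual way in which larvae were collected. Per the labels the libraries were numbered 1 to 6 in elmo2+/+, and 13 to 16 and then 7 and 8 in elmo2-/- replicates 1 to 6, so that genotype and library number cannot be told apart. No label says that the pools came from separate clutches, and p-values measure the spread between these pools.

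Chaperones bind proteins that are not yet folded or have lost their fold. HSP70 proteins bind and release short hydrophobic stretches in an ATP cycle that J proteins start, HSP90 proteins act later on clients such as kinases and receptors, and small heat shock proteins hold unfolded proteins without ATP. Heat shock factor 1, encoded by hsf1, drives the inducible members when unfolded protein accumulates, while constitutive members serve every cell, and separate chaperones serve the endoplasmic reticulum and the mitochondrion. In zebrafish, hsp70l is the classical heat-inducible gene and is also active in the forming lens, and hsp90aa1.1 with its partner unc45b folds myosin in skeletal muscle.

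Depth was alike, with 20116203 to 20560518 estimated counts per sample in elmo2-/- and 20245232 to 20939679 in elmo2+/+. The targeted gene, elmo2 (ENSDARG00000063527), lay between 31.4 and 51.6 CPM in elmo2-/- and between 56.3 and 92.4 CPM in elmo2+/+, and the genotypes did not overlap. CPM are counts divided by the scaled library size and set to a common total. The log2 fold change of elmo2, elmo2-/- minus elmo2+/+ as for all folds below, was -0.93 (SE 0.15, edgeR unadjusted p = 2.88e-05, adjusted p = 0.642).

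The constitutive cytosolic chaperones dominated the levels. In elmo2+/+ larvae hspa8 row 1, the constitutive HSP70, reached 2261 ± 154 TPM (SD, n = 6), a unit that corrects for transcript length. The constitutive HSP90, hsp90ab1 (ENSDARG00000029150), reached 1287 ± 48.0 TPM, and both genes together made up 93.7% of the summed TPM of the 11 rows in elmo2+/+ and 93.6% in elmo2-/-. Next came hspa5 (ENSDARG00000103846), the HSP70 of the endoplasmic reticulum, at 85.1 TPM in elmo2+/+. Below it lay hsp90aa1.2 at 38.9 TPM, hspd1 (ENSDARG00000056160), the mitochondrial chaperonin HSP60, at 37.6 TPM, hsp90aa1.1 at 28.8 TPM and the small heat shock protein gene hspb1 (ENSDARG00000041065) at 27.2 TPM. The ranges over the elmo2+/+ samples overlapped between each neighbouring pair in this run from hsp90aa1.2 to hspb1, so their order is not fixed by these data. Lower still were hsf1 (ENSDARG00000008818) at 9.04 TPM, the J protein gene dnajb1b (ENSDARG00000041394) at 6.44 TPM, and hsp70l (ENSDARG00000055723) at 4.16 TPM, and the ranges of these 3 genes did not overlap. The range of hsp70l did overlap that of hspa8 row 2, at 2.68 TPM. On the TPM scale hspa8 row 1 was 544-fold above hsp70l, and hsp90ab1 was 44.7-fold above hsp90aa1.1, in elmo2+/+ larvae.

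**Figure D1:**
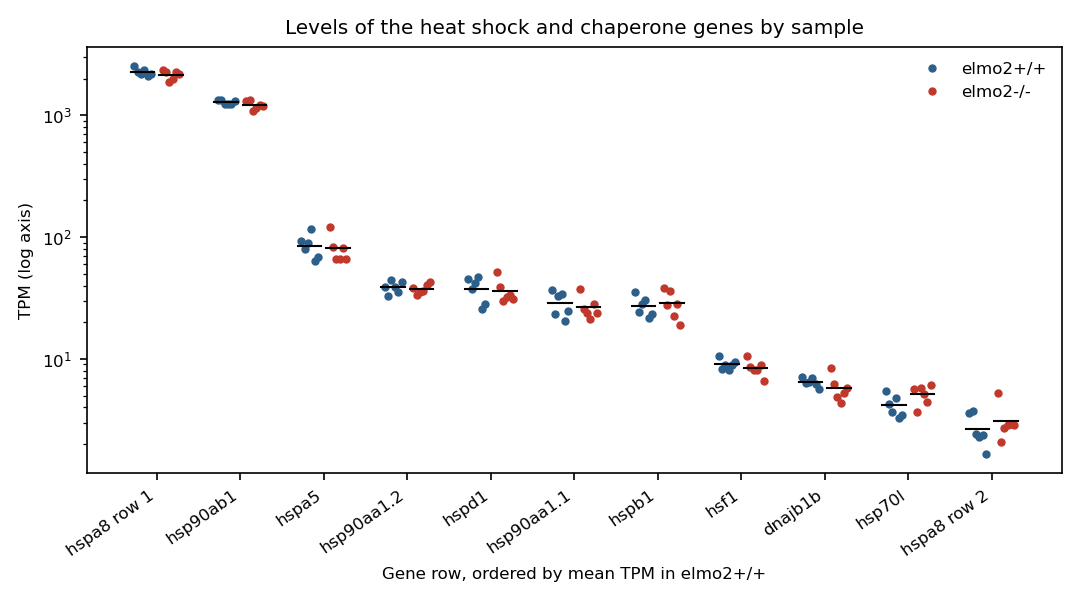
TPM on a log axis for the 11 gene rows, ordered by their mean in elmo2+/+, with a point for each of 6 elmo2+/+ (blue) and 6 elmo2-/- (red) samples and a line at each mean. hspa8 row 1 and hsp90ab1 lie above 1000 TPM in every sample, and the points of the genotypes overlap for every row.

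None of the 11 rows differed between genotypes after adjustment over the 22259 genes tested in edgeR's quasi-likelihood test, in which 0% of all genes did. All 11 passed the filter on low counts, each had an adjusted p of 0.9997, and DESeq2 and limma also called 0 of them after adjustment. At an unadjusted p under 0.05, 1 of 11 rows was past the threshold, hsp70l, against 4.68% of all genes (2.55% higher and 2.13% lower in elmo2-/-). The CPM of the genotypes overlapped for 11 of 11 rows, and over all genes 0.198% did not overlap. There were 3 rows with a higher and 8 with a lower fitted level in elmo2-/-, with a median log2 fold change of -0.040, beside 11083 higher and 11176 lower genes and a median of -0.00061 over all genes. The members' median turned to 0.023 without elmo2+/+ replicate 4 and was -0.11 with only the elmo2-/- libraries 7 and 8. In RNA of whole larvae, fewer cells of a type and less RNA per cell cannot be told apart.

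**Figure D2:**
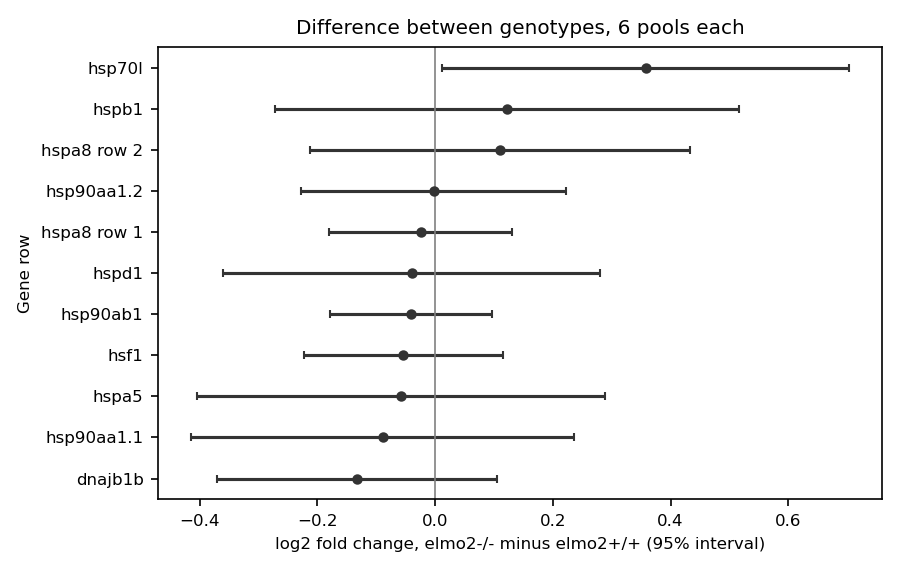
Log2 fold change (elmo2-/- minus elmo2+/+) of the 11 gene rows from edgeR with 6 pools per genotype, with bars for the 95% interval and a grey line at 0. The interval of hsp70l, from 0.012 to 0.70, is the only one of the 11 that leaves out 0.

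Among the HSP70 genes, hsp70l had the only unadjusted p under 0.05. Its CPM in elmo2-/- larvae were 9.09, 6.40, 11.3, 9.91, 7.99 and 11.6 in replicates 1 to 6, and in elmo2+/+ larvae 8.80, 7.23, 6.54, 9.15, 5.86 and 6.26. Values in 3 elmo2-/- pools exceeded every elmo2+/+ pool, and 1 elmo2-/- pool lay below the elmo2+/+ median. The log2 fold change was 0.36 (SE 0.16, 95% interval 0.012 to 0.70, edgeR unadjusted p = 0.0371), while the exact two-sided permutation test over all splits into 6 and 6 gave p = 0.0779. The edgeR p lay between 0.00712 and 0.0927 when single pools were left out. It passed 0.05 without elmo2-/- replicate 3, 4 or 6 or without elmo2+/+ replicate 2, 3, 5 or 6, that is for 7 of the 12 pools. The counts behind hsp70l were few, 170 on average per sample, and counting error alone gives a coefficient of variation of 7.68% beside the 20.4% measured within genotypes.

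The close copies hsp70.1 and hsp70.3, further inducible HSP70 genes, lay on the other side. Levels of hsp70.1 were 2.99 ± 0.481 CPM in elmo2-/- and 3.62 ± 0.563 CPM in elmo2+/+ (SD, n = 6; log2 fold change -0.27, SE 0.14, edgeR unadjusted p = 0.0656). Those of hsp70.3 were 9.30 ± 1.77 and 11 ± 2.12 CPM (log2 fold change -0.25, SE 0.15, edgeR unadjusted p = 0.113). Estimated counts of all 3 genes were not whole numbers in 12 of 12 samples, so reads were shared out with other transcripts, and how they were divided is not stated. This does not single out close copies, since hsf1, hspb1, dnajb1b and hspa8 row 1 also had such counts in 12 of 12 samples. For hsp90ab1 it was 11 samples, for hspd1 2 and for hspa5 0. Summed over the 3 genes, the level was 21.7 ± 2.82 CPM in elmo2-/- and 22.0 ± 3.81 CPM in elmo2+/+ (SD, n = 6). This is a difference of -0.013 on the log2 scale (exact permutation p = 0.918). The share of hsp70l in that sum was 43.2 ± 7.08% in elmo2-/- against 33.2 ± 1.52% in elmo2+/+ (SD, n = 6; exact permutation p = 0.00649, for a measure chosen after the values were seen). It kept between 31.5% and 35.8% in the elmo2+/+ pools and ran from 33.3% to 51.7% in the elmo2-/- pools, 5 of which were above all elmo2+/+ pools. Another HSP70 row, hspa1b, was left out of the sum and lay on the side of hsp70l. Its level was 1.38 ± 0.224 CPM in elmo2-/- and 1.24 ± 0.163 CPM in elmo2+/+ (SD, n = 6; log2 fold change 0.16, SE 0.15, edgeR unadjusted p = 0.326).

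**Figure D3:**
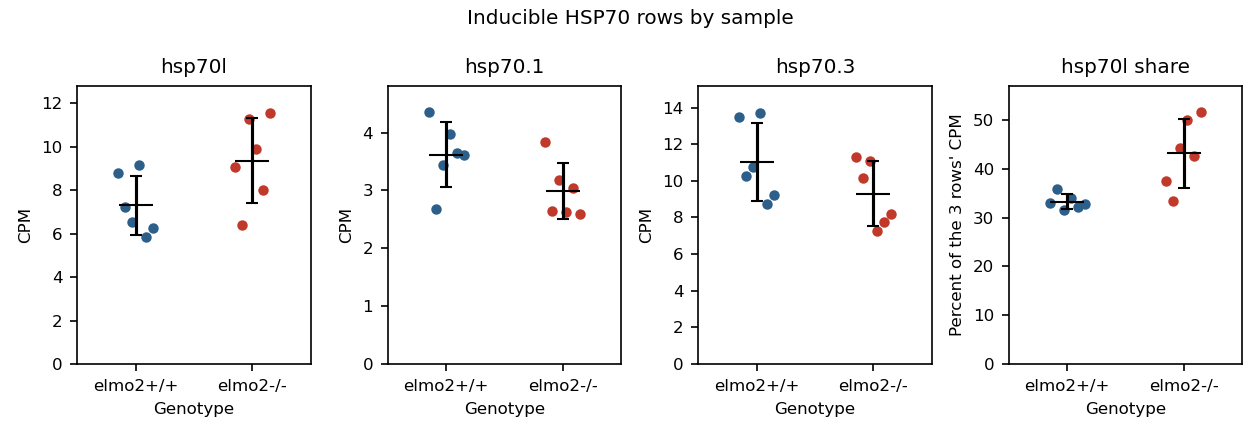
CPM of hsp70l, hsp70.1 and hsp70.3, and the percent of their sum that hsp70l takes, with a point per sample (6 elmo2+/+ in blue, 6 elmo2-/- in red) and the mean with SD in black. The share of hsp70l spans 31.5% to 35.8% in elmo2+/+ and 33.3% to 51.7% in elmo2-/-, while each gene's CPM overlap between genotypes.

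Immediate early genes, which respond within minutes to many stimuli including handling, were on the same side as hsp70l. Of 18 rows matched and tested, 18 were higher in elmo2-/-, 13 of them at an unadjusted p under 0.05 (over all genes 2.55%) and 0 after adjustment (median log2 fold change 0.68). The listed gene fosab matched no row, and some symbols matched more than 1 row. Their summed TPM ran from 254 to 692 in elmo2-/-, with a median of 460, and from 267 to 460 in elmo2+/+, with a median of 282. Across the 12 pools hsp70l and this sum correlated with r = 0.583 (permutation p = 0.0519, adjusted p = 0.0741) and rho = 0.671 (permutation p = 0.021, adjusted p = 0.03). This relation was chosen after the data were seen. Genotype means were left in, so the difference between genotypes enters its r, rho and p. Without the 2 pools farthest from the median of hsp70l r was 0.701, and within genotypes it was 0.351 in elmo2-/- and 0.594 in elmo2+/+. Lens fibre genes were lower in elmo2-/- for 18 of 18 tested, 5 at an unadjusted p under 0.05 (over all genes 2.13%) and 0 after adjustment (median log2 fold change -0.17). Their summed TPM were 8729 to 12920 against 11020 to 14910. Both lists were chosen with earlier results of these data known, and the genes of a list share the same pools. The part of the lens in the level of hsp70l was not tested. No marker row of any list used here was at 0 in all samples.

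The constitutive HSP70 gene varied little, with a coefficient of variation of 5.92% within genotypes. For hspa8 row 1 the lowest, median and highest CPM were 3921, 4145 and 4441 in elmo2-/- and 3951, 4180 and 4798 in elmo2+/+. The lower ends and medians lay close together, while the elmo2+/+ range reached higher. The log2 fold change was -0.025 (SE 0.070, 95% interval -0.18 to 0.13). The weakly expressed hspa8 row 2 had 3.22, 3.93 and 5.11 CPM in elmo2-/- and 3.03, 3.44 and 4.998 CPM in elmo2+/+ (log2 fold change 0.11, SE 0.15), with counts that were not whole in any sample. This fold was 0.021 without elmo2-/- replicate 1 and 0.22 without elmo2+/+ replicate 1.

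The endoplasmic reticulum HSP70 gene hspa5 varied more between pools than between genotypes. Its CPM were 196, 147, 131, 130, 150 and 127 in elmo2-/- replicates 1 to 6 and 152, 138, 163, 226, 115 and 125 in elmo2+/+ replicates 1 to 6. A single pool in each genotype, elmo2-/- replicate 1 and elmo2+/+ replicate 4, stood above the others. The log2 fold change was -0.058 (SE 0.16, 95% interval -0.40 to 0.29) and turned to 0.086 without elmo2+/+ replicate 4. The coefficient of variation within genotypes was 22.5%, beside 1.80% from counting error.

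The 3 HSP90 members kept within their spread. Constitutive hsp90ab1 had a lowest, median and highest CPM of 3182, 3335 and 3530 in elmo2-/- and 3286, 3387 and 3631 in elmo2+/+, so that 2 elmo2-/- pools fell below all elmo2+/+ pools. Its log2 fold change was -0.041 (SE 0.062, 95% interval -0.18 to 0.097), and its coefficient of variation of 4.05% was the lowest of the 11 rows. The HSP90 gene hsp90aa1.1 had 43.8, 49.1 and 65.8 CPM in elmo2-/- and 39.5, 55.7 and 70.16 CPM in elmo2+/+ (log2 fold change -0.089, SE 0.15, 95% interval -0.41 to 0.24), and the elmo2-/- values lay within the range of elmo2+/+. For hsp90aa1.2 the values were 68.3, 80.9 and 95.1 CPM in elmo2-/- and 65.6, 80.7 and 93.45 CPM in elmo2+/+ (log2 fold change -0.0026, SE 0.10, 95% interval -0.23 to 0.22). Both of these genes had counts that were not whole in 12 of 12 samples, as hsf1 and hspb1 did. In the RefSeq annotation hsp90aa1.1 and hsp90aa1.2 neighbour each other. Their sum was 132 ± 9.89 CPM in elmo2-/- and 135 ± 21.2 CPM in elmo2+/+ (SD, n = 6; exact permutation p = 0.820). Skeletal muscle genes were higher in elmo2-/- for 13 of 18, 1 at an unadjusted p under 0.05 (over all genes 2.55%) and 0 after adjustment (median log2 fold change 0.11), with summed TPM of 88010 to 128900 against 92020 to 111800. This sum was lowest of each genotype in elmo2-/- replicate 1 and elmo2+/+ replicate 1, where hsp90aa1.1 was at 65.8 and 65.0 CPM, highest and second highest of its genotype. In elmo2+/+ replicate 4, the highest of its genotype for hsp90aa1.1 at 70.16 CPM, the muscle sum was 107300. No correlation of hsp90aa1.1 with the muscle sum was computed.

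The small heat shock protein gene hspb1 spread widely, with a lowest, median and highest CPM of 12.4, 18 and 26.3 in elmo2-/- and 13.6, 16.4 and 21.8 in elmo2+/+. The elmo2-/- range held the elmo2+/+ range inside it, and the log2 fold change was 0.12 (SE 0.18, 95% interval -0.27 to 0.52). Means were 20.5 CPM in the elmo2-/- libraries 13 to 16 and 15.3 CPM in libraries 7 and 8.

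Levels of dnajb1b, whose J protein starts the HSP70 cycle, overlapped between genotypes. The lowest, median and highest CPM were 6.93, 8.28 and 10.6 in elmo2-/- and 8.37, 9.25 and 11.1 in elmo2+/+. Values in 3 elmo2-/- pools fell below every elmo2+/+ pool and the difference did not pass the test (log2 fold change -0.13, SE 0.11, 95% interval -0.37 to 0.11, edgeR unadjusted p = 0.235). The transcription factor gene hsf1 had 20.1, 25.15 and 27.2 CPM in elmo2-/- and 22.7, 25.6 and 27.4 CPM in elmo2+/+ (log2 fold change -0.054, SE 0.076, 95% interval -0.22 to 0.11). Its coefficient of variation of 8.4% was below that of its target hsp70l.

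Mitochondrial hspd1 ran from 64.6 to 91.1 CPM in elmo2-/-, with a median of 70.7, and from 53.1 to 102.5 CPM in elmo2+/+, with a median of 77.6. The elmo2-/- pools lay inside the range of elmo2+/+, and the log2 fold change was -0.040 (SE 0.14, 95% interval -0.36 to 0.28).

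The members varied together across pools in part. As deviations from the genotype means over 12 samples, the 55 pairs of rows had a median r of 0.308, from -0.566 (hspa8 row 2 with hsp90ab1) to 0.947 (hspa5 with hspd1), and 3 pairs had an r of at least 0.8. Those 3 pairs joined hspa5, hspd1 and hsp90aa1.1, chaperones of different compartments (0.947, 0.872 for hspa5 with hsp90aa1.1, and 0.847 for hsp90aa1.1 with hspd1). In contrast, r with hspa5 was 0.093 for hsp90ab1, 0.063 for hsp90aa1.2, 0.241 for hsp70l and 0.265 for hsf1. The r of hsp70l with dnajb1b was 0.155. Counting error gives a coefficient of variation of 7.68% for hsp70l and 7.41% for dnajb1b, beside 20.4% and 12.9% within genotypes. For hspa5 these were 1.80% and 22.5%, and the part of counting error in the lower r was not tested. These r are descriptions, since the points share libraries.

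**Figure D4:**
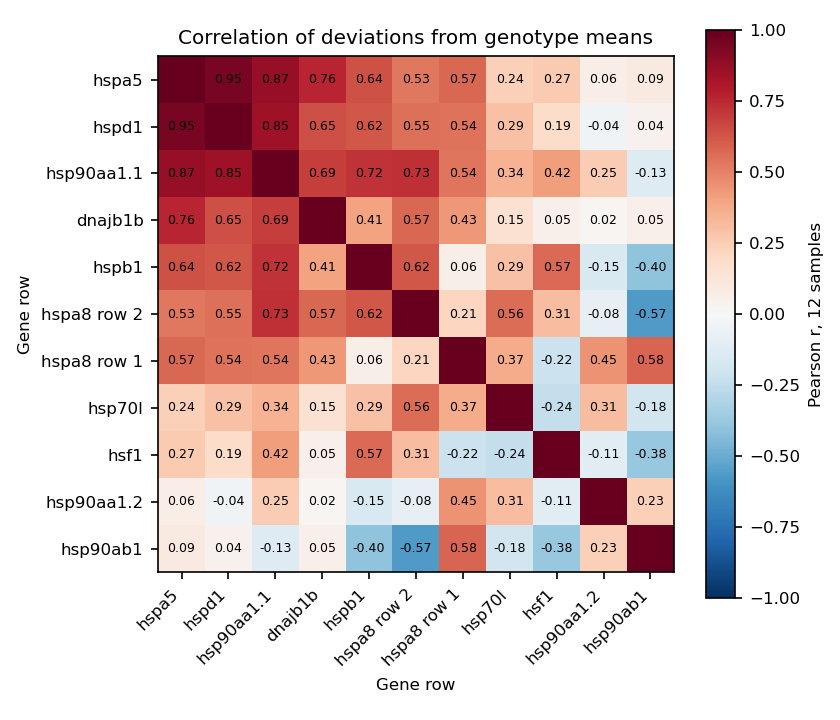
Pearson r between the 11 gene rows over 12 samples, computed on log2 CPM as deviations from the mean of each genotype (red positive, blue negative, value in each cell). hspa5, hspd1 and hsp90aa1.1 form a block with r of 0.847 to 0.947, and hsp90ab1 and hsp70l stand apart from it.

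Partner genes of the same compartment correlated with these 3 members, with genotype means left in, but were not alone in this. On deviations from the genotype means the hundredth most similar gene still had an r of 0.877 with hspa5 and 0.840 with hsp90aa1.1. The p-values test against no correlation, not against other genes. The endoplasmic reticulum HSP90 gene hsp90b1 correlated with hspa5 across the 12 pools with r = 0.930 and rho = 0.972 (permutation p = 2e-05 for each, the smallest that the 100000 resamples give, adjusted p = 0.0002). HSP10, the lid of HSP60 encoded by hspe1, correlated with hspd1 with r = 0.904 (permutation p = 0.00012, adjusted p = 0.000467) and rho = 0.902 (permutation p = 0.00018, adjusted p = 0.000733). Myosin chaperone gene unc45b correlated with hsp90aa1.1 with r = 0.858 (permutation p = 0.00046, adjusted p = 0.00092) and rho = 0.720 (permutation p = 0.0104, adjusted p = 0.0174). Without the 2 pools farthest from the median of the first gene r was 0.945, 0.868 and 0.744 for the 3 pairs, and within genotypes it lay between 0.750 and 0.986. The p-values were adjusted over 10 relations. None of these partners differed between genotypes in edgeR after adjustment, at 133 ± 31.8 and 144 ± 40.2 CPM for hsp90b1, 36.0 ± 3.86 and 37.2 ± 8.14 CPM for hspe1 and 21 ± 3.04 and 23.0 ± 4.96 CPM for unc45b in elmo2-/- and elmo2+/+ (SD, n = 6).

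The r of 0.155 for hsp70l with dnajb1b above was on deviations from the genotype means. With those means left in, no correlation of hsp70l with 3 further heat-inducible members passed the test. It was compared with dnajb1b with r = -0.0918 (permutation p = 0.776) and rho = -0.105 (permutation p = 0.750), with hspb1 with r = 0.331 (permutation p = 0.289) and rho = 0.350 (permutation p = 0.267), and with hsp90aa1.2 with r = 0.263 (permutation p = 0.40) and rho = 0.280 (permutation p = 0.379). The adjusted p was 0.776, 0.361 and 0.445 for r and 0.750, 0.333 and 0.421 for rho. Without the 2 pools farthest from the median of hsp70l, r was -0.100, 0.641 and -0.0312. Within elmo2+/+ r was 0.664, 0.885 and -0.0637, and within elmo2-/- -0.134, -0.0730 and 0.702, each over 6 pools, and the difference between genotypes was not tested.

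The hepatocyte marker sum correlated with hspa5, hspd1 and hsp90aa1.1, with genotype means left in. Correlations of these 3 genes with the other marker lists were not computed. In mean TPM over all samples, the largest parts of the marker sum were apoa1b (3393), apoa2 (3224), fabp10a (2143) and apoa1a (1356). The sum thus weighs apolipoprotein genes and fabp10a most, and the tissue that their RNA came from was not tested. The summed TPM of 14 hepatocyte markers ran from 4475 to 17520 in elmo2-/- (median 11050) and from 5044 to 19930 in elmo2+/+ (median 11360), and 10 of the 14 were higher in elmo2-/- (median log2 fold change 0.062, 0 at an unadjusted p under 0.05). Across the 12 pools this sum correlated with hspa5 with r = 0.806 (permutation p = 0.00014, adjusted p = 0.000467) and rho = 0.888 (permutation p = 0.00022, adjusted p = 0.000733). With hspd1 r was 0.856 (permutation p = 0.00036, adjusted p = 0.0009) and rho 0.888 (permutation p = 0.00036, adjusted p = 0.0009). With hsp90aa1.1 r was 0.670 (permutation p = 0.0152, adjusted p = 0.0253) and rho 0.783 (permutation p = 0.00394, adjusted p = 0.00788), and r fell to 0.486 without the 2 pools farthest from the median, where it was 0.776 for hspa5 and 0.832 for hspd1. Within elmo2-/- r was 0.715, 0.763 and 0.551 for the 3 genes, and within elmo2+/+ 0.901, 0.968 and 0.793. These relations, and that of hsp70l with the immediate early genes, were chosen after the data were seen. The hundredth single gene, on deviations from the genotype means, had a higher r with hspa5 (0.877) and with hsp90aa1.1 (0.840) than the hepatocyte sum. That gene was picked for its r out of many and the measures differ, so the comparison cannot decide whether a relation is particular to liver. For hspd1 no such ranking of genes was made. The part of liver content in the variation of these chaperones was not tested.

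**Figure D5:**
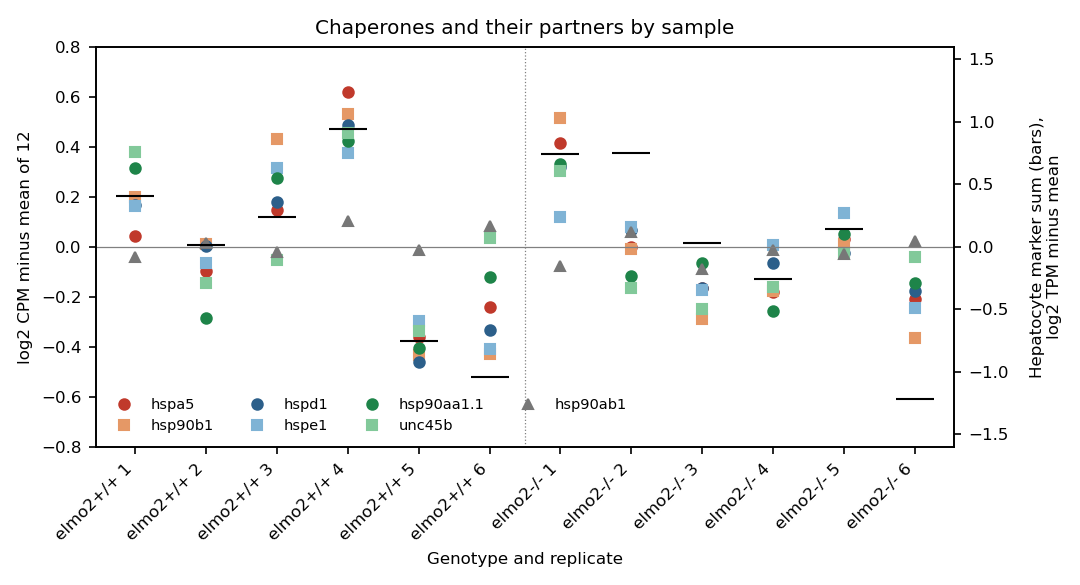
Log2 CPM minus the mean of 12 samples for hspa5, hspd1 and hsp90aa1.1 (circles), their partners hsp90b1, hspe1 and unc45b (squares) and hsp90ab1 (triangles) in each sample, with the summed TPM of hepatocyte markers as black bars on the right axis, whose scale is wider. Circles, squares and the bar are all above their means in elmo2+/+ replicate 4 and elmo2-/- replicate 1 and below them in elmo2+/+ replicate 5, whereas in elmo2-/- replicate 2 the bar is high and hsp90aa1.1 and unc45b are below their means.

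The genes whose pattern over the 12 samples was most like that of a member were named by the 5 highest r, on log2 CPM as deviations from the genotype means, among 15150 genes with a mean of at least 5 CPM. For hspa5 they were HSPD1 (0.947), the nucleolar gene nolc1 (0.941), hadhaa of mitochondrial fatty acid oxidation (0.937), the prohibitin gene PHB2 (0.933) and HSP90B1 (0.933), with the hundredth gene at 0.877. For hsp90aa1.1 they were the replicative helicase genes MCM5 (0.959) and MCM4 (0.927), TALDO1 of the pentose phosphate pathway (0.946), the microtubule end-binding gene MAPRE1 (0.935) and MANF, a secreted protein of the endoplasmic reticulum (0.926), with the hundredth gene at 0.840. For hsp70l they were hnrnpc (0.884), USP5 (0.863), METTL16 (0.851), CRTAP (0.848) and TMEM177 (0.845), with the hundredth gene at 0.681, the lowest of these 3 values.

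In the wider chaperone lists 0 genes passed adjustment in edgeR. Over all genes 49.8% were higher in elmo2-/- and 4.68% had an unadjusted p under 0.05. Of 17 HSP70 and HSP110 genes 7 were higher and 10 lower (median log2 fold change -0.028), with hsp70l the only one at an unadjusted p under 0.05, and the highest mean TPM over all samples were 2210 for HSPA8 and 82.9 for HSPA5. All 5 HSP90 genes were lower, with a median of -0.076 and none at an unadjusted p under 0.05, and HSP90AB1 (1251 TPM) and HSP90B1 (64.0 TPM) were the most abundant. Among J proteins of classes A and B 9 of 19 were higher and 10 lower (median -0.00055), led by a pair of DNAJA2 rows at 73.2 and 68.6 TPM. Heat shock factors and their binding proteins were higher for 2 of 5 and lower for 3 (median -0.054), led by HSBP1 (71.7 TPM) and hsbp1b (64.4 TPM), whose products bind heat shock factor trimers.

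Chaperonin genes were higher for 3 of 10 and lower for 7 (median log2 fold change -0.033). Highest in TPM were the row cct2 (520.5 TPM) and a second row, CCT2 (242 TPM), with the symbol of the same subunit of the cytosolic chaperonin. The rank of cct2 holds on the TPM scale only. Its means were 56.3 CPM in elmo2-/- and 57.6 CPM in elmo2+/+, against 306.3 and 317.8 CPM for CCT4 (214 TPM). Cytosolic co-chaperones were higher for 13 of 25 and lower for 12 (median 0.0044), led by ST13 (68.3 TPM), which steadies the HSP70 and client complex, and CDC37 (68.0 TPM), which brings kinases to HSP90. Endoplasmic reticulum folding and unfolded protein response genes were higher for 15 of 31 and lower for 16 (median -0.011), led by SERP1 (163.9 TPM) and the disulfide isomerase gene PDIA3 (143.7 TPM). Across J proteins, heat shock factors, chaperonins, co-chaperones and endoplasmic reticulum genes, 0 had an unadjusted p under 0.05. Neuron genes, for comparison, were higher for 7 of 11 (median 0.028, 0 after adjustment), with summed TPM of 2204 to 2777 in elmo2-/- and 2161 to 3016 in elmo2+/+.

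Small heat shock proteins were higher for 6 of 12 and lower for 6 (median log2 fold change -0.013), with the lens crystallin gene CRYAA (72.7 TPM) and HSPB1 (27.9 TPM) the most abundant. The fold of CRYAA was -0.27 (log2, SE 0.16), beside the 18 of 18 lower lens fibre genes. The only gene of the list with an unadjusted p under 0.05 was hspb9, at 5.71, 5.82, 23.7, 7.38, 7.16 and 12.6 CPM in elmo2-/- replicates 1 to 6 and between 4.77 and 7.27 CPM in elmo2+/+, with a median of 5.17. Values in 3 elmo2-/- pools exceeded every elmo2+/+ pool, with replicate 3 highest. The log2 fold change was 0.93 (SE 0.32, edgeR unadjusted p = 0.0121, exact permutation p = 0.0195, adjusted p = 0.9997) and fell to 0.50 without elmo2-/- replicate 3.

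Mitochondrial folding and proteolysis genes were higher for 9 of 20 and lower for 11 (median log2 fold change -0.032), led by HSPE1 (107.6 TPM) and the nucleotide exchange factor gene GRPEL2 (84.4 TPM). A row listed as HTRA2 (ENSDARG00000111633), the symbol of a mitochondrial serine protease, was at 0.946 ± 0.468 CPM in elmo2-/- and 1.72 ± 0.172 CPM in elmo2+/+ (SD, n = 6), with 5 elmo2-/- pools below every elmo2+/+ pool. Its log2 fold change was -0.87 (SE 0.29, edgeR unadjusted p = 0.0104, exact permutation p = 0.00433, adjusted p = 0.9997). It is 1 of 13 rows with that symbol. Of the other tested rows, ENSDARG00000094741 had a log2 fold change of 0.47 (SE 0.24, edgeR unadjusted p = 0.0757). ENSDARG00000076713 had -0.29 (SE 0.29) and ENSDARG00000069909, the most abundant, 0.093 (SE 0.10). Counts of ENSDARG00000111633 were few, 27.1 on average per sample and 4.6 in elmo2-/- replicate 1, and counting error alone gives a coefficient of variation of 19.2%. They were not whole in 12 of 12 samples, and the row's value is uncertain where reads were divided among copies.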

How the data were processed

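RNA of 12 pools of 30 larvae was isolated with the RNeasy Kit and sequenced by BGISEQ-500 protocols. Files deposited for each sample hold an estimated count per gene, often with a fraction and with no scaling to other samples. The authors also gave TPM, which corrects for transcript length and has 1 total in every sample. The submitters' processing notes name Trim Galore 0.6.4, kallisto 0.4.6 and GRCz11 without role or settings. How reads of close copies were divided, and whether strand was used, is not given in the sources used here.

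Symbols were matched for 29201 identifiers. Estimated counts were rounded and fitted in edgeR 4.0.16 (R 4.3.3) with filterByExpr (minimum count of 10), TMM and the quasi-likelihood test on genotype alone, with p adjusted by Benjamini-Hochberg over 22259 genes. SE is the absolute log2 fold change over the square root of F, and the 95% interval uses 10 degrees of freedom. Log2 CPM used a prior count of 2. Single values were compared by exact two-sided permutation over all splits into 6 and 6, correlations by 100000 resamples. The correlations given with a p-value used log2 values with the genotype means left in. Counts within 0.001 of an integer were called whole. Totals of 20116203 to 20939679 counts per sample and a biological coefficient of variation of 0.171 leave most of the error of abundant genes to the spread between pools. No pair of the 66 pairs of samples agreed within sampling noise. The edgeR fit was tested on simulated counts. The permutation tests, correlations, sums over copies and the DESeq2 and limma fits were not tested in this way.

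The members, the 9 chaperone lists and the 5 marker lists (skeletal muscle, lens fibre, immediate early, hepatocyte and neuron genes) were chosen with earlier results of these data known. Genes named are the members, elmo2, and the 5 genes most like hsp70l, hspa5 and hsp90aa1.1. In each chaperone list, those with an unadjusted p under 0.05 (up to 4) and the 2 with the highest mean TPM were also named. Close copies, partner genes and the largest parts of the hepatocyte sum were added. Alternatives were RLE factors, library size only, DESeq2 1.42.0, no low-count filter, limma 3.58.1 on log2(TPM + 1) or log2(TPM + 0.1), the replicate number as a block, leaving out each sample, and elmo2-/- libraries 13 to 16 or 7 and 8 only. A hepatocyte covariate was added after the data were seen. A planned search of promoter and protein sequences was not run.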

Additional observations from a re-analysis of the deposited data

Results flagged for a closer look

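In 4 of the 38 groups of 6 samples examined (chaperone genes, elmo2 and a row listed as HTRA2, each within a genotype), the highest or lowest sample stood apart by Dixon's criterion, which chance meets in about 1 in 20 groups. The groups share the same pools and are not independent, so the 2 rates cannot be compared directly. Elmo2-/- replicate 1 was highest for hspa5, at 196.1 CPM with the nearest pool at 150.2 CPM. The same pool was highest for hsp90b1, at 192.3 CPM with the nearest at 135.7 CPM, and for unc45b, at 26.76 CPM with the nearest at 21.33 CPM. Elmo2+/+ replicate 3 was highest for hspb9, at 7.272 CPM with the nearest at 5.432 CPM.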

How the results depend on the processing

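No member passed an adjusted p under 0.05 in any of the 22 alternatives, while over all genes DESeq2 called 3, limma on log2(TPM + 1) 1 and the hepatocyte covariate 1. Calls included elmo2, at an adjusted p of 0.000123 with DESeq2, 0.0465 with limma and 0.00458 with the covariate. The single member with an unadjusted p under 0.05, hsp70l, dropped out (0 members) with limma on either TPM scale and with only libraries 13 to 16 or only 7 and 8, and the count ran from 0 to 2 when a sample was left out. The 2 members, without elmo2-/- replicate 1, were hsp70l and dnajb1b, with dnajb1b lower in elmo2-/- (log2 fold change -0.21). In the 242 comparisons of a member's fold with an alternative, 14 changed sign. Sign changes with only libraries 7 and 8 were 0.16 for hsp90aa1.2, 0.050 for hspa8 row 1 and -0.17 for hspb1, and with only libraries 13 to 16 0.0087 for hspd1. Leaving out a sample gave -0.059 to 0.042 for hsp90aa1.2, -0.045 to 0.011 for hspa8 row 1, -0.16 to 0.086 for hspa5, -0.12 to 0.067 for hspd1 and -3.463e-06 to 0.21 for hspb1. Without changing sign, leaving out a sample gave 0.021 to 0.22 for hspa8 row 2, -0.17 to -0.0084 for hsp90aa1.1, -0.087 to -0.0048 for hsf1, -0.21 to -0.079 for dnajb1b, -0.058 to -0.027 for hsp90ab1 and 0.29 to 0.45 for hsp70l. The members' median ran from -0.050 to 0.023 when a sample was left out. The median of the heat shock factor list was 0.075 with libraries 7 and 8 and -0.087 to 0.060 when a sample was left out. The cause was not tested.

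With the replicate number as a block, 0 members passed adjustment, hsp70l had an unadjusted edgeR p of 0.0362, and hsp90aa1.2 turned to 0.0014. Same-numbered samples deviated together with r from -0.252 to 0.619 over the 6 numbers, with a mean of 0.16. The numbers were not taken as pairs, because no source says that they stand for a shared litter or day. Over all genes 1041 had an unadjusted p under 0.05, 1445 with the block, 1740 with the covariate, 688 with only libraries 13 to 16 and 1620 without elmo2-/- replicate 1. Small differences are limited by the spread between pools. For hsp70l, dnajb1b and hspa8 row 2, and for hsp70.1, hsp70.3, hspb9 and the HTRA2 row, few counts limit them too.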
